A study of Mus musculus with 9 samples.

Results

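The 10 immediate early genes examined here are Fos, Fosb, Jun, Junb, Jund, Egr1, Ier2, Atf3, Dusp1 and Btg2, which were taken by name from the 32285 genes of the count matrices. They were chosen as classic genes with paused Pol II that the dissociation of a tissue into single cells also induces, and all 10 passed the filter on low counts in every comparison given below. Immediate early genes are transcribed within minutes of a growth factor, stress or wound signal, without the need for new protein synthesis. Many of them hold Pol II paused just downstream of the start site, where the NELF complex helps to hold it, so that a signal acts mainly through pause release. Fos, Fosb, Jun, Junb and Jund encode subunits of the transcription factor AP-1, Egr1 and Atf3 encode a zinc finger and a stress-induced bZIP transcription factor, Dusp1 encodes a phosphatase that inactivates MAP kinases, Btg2 encodes an antiproliferative cofactor of mRNA deadenylation, and Ier2 encodes a nuclear protein of the early response.

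Single cell RNA-seq had been performed on whole testes of 9 mice at postnatal day 24 (PND24), with 1 library per mouse: 4 control, 2 NELF-B cKO and 3 TDP-43 cKO mice. Each cKO mouse carried 1 floxed and 1 null allele of Nelfb or of Tardbp, the gene for TDP-43, and the Stra8-iCre transgene, and the control mice were littermates or non-littermates. All mice are labelled C57BL/6, and per the study's methods the lines had been backcrossed to C57BL/6 J. The floxed Nelfb allele came from C57BL/6 N mice, and the floxed Tardbp allele from mice of mixed C57BL/6 N and C57BL/6 J background. The deposited name of control replicate 2 carries "het", whose meaning is not given in the sources used here. Stra8-iCre acts in spermatogonia and their descendants, so the somatic cells of a cKO mouse were not targeted but carried the null allele. All testes had been minced and digested at 35.5 °C with collagenase and DNase, and then with trypsin, hyaluronidase, collagenase and DNase, for 20 min each. Clusters were named from marker genes as SG-like (spermatogonia), pL-L-Z-like (preleptotene, leptotene and zygotene spermatocytes), P-D-like (pachytene and diplotene spermatocytes), RS-like (round spermatids), Sertoli-like, Leydig-like, interstitial-like, myoid-like, endothelial-like, macrophage-like and immune-like, and "-like" is left off below. The 10 genes were kept out of the genes used for clustering.

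UMIs, each counting 1 captured transcript molecule at its 3′ end, were summed per mouse and cell type. Levels are given in CPM, the UMIs of a gene per 1000000 UMIs of that sum, in the order of the replicates of a group. A sum cannot tell fewer expressing cells from less RNA per cell. The libraries held 119203347 to 159407373 UMIs, and 26186 of 45132 barcodes past the filter were used: 12544 from control, 6619 from NELF-B cKO and 7023 from TDP-43 cKO mice. Among the barcodes past the filter, 260 barcode sequences occurred in more than 1 library, 520 barcodes in all. To be called, a gene needed both an adjusted p under 0.01 and a change of 2-fold or more in edgeR's quasi-likelihood test, with Benjamini-Hochberg adjustment over all genes tested. The p-values of the genotype comparisons within a cell type or class measure the spread between mice of a group. Contrasts between cell types or classes held the mouse as a block. Their p-values measure the spread left among the sums of the same mice.

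The promoters of 3 of the genes are shown because they carry the CRE or its core, an element through which immediate early genes are known to respond to signals. Fos also rose and fell with most of the others across the cell types. Other signal response elements, such as the serum response element, were not searched for. They are the 250 bases before the RefSeq start site on the GRCm38 build (GRCm38.p6), 5′ to 3′ on the strand of the gene, and 8 of the 10 genes were matched in the RefSeq table. The capitals mark, on either strand, the TATA box TATAAA, the CRE core TGACG, which also lies within the full CRE TGACGTCA, and the GC box GGGCGG. The Fos window lies at chr12:85473640-85473889 on the plus strand, directly before the gene. The Dusp1 window lies at chr17:26508473-26508722 and the Btg2 window at chr1:134079156-134079405, both on the minus strand.
Fos: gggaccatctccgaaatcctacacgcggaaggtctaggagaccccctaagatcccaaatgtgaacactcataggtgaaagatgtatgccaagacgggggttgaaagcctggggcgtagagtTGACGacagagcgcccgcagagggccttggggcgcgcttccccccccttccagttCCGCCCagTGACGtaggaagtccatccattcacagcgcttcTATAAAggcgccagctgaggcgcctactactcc
Dusp1: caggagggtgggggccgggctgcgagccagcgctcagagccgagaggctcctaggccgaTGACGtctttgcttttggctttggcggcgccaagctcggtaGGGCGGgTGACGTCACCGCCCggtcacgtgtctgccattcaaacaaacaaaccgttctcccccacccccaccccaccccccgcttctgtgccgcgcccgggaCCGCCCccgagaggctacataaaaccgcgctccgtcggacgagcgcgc
Btg2: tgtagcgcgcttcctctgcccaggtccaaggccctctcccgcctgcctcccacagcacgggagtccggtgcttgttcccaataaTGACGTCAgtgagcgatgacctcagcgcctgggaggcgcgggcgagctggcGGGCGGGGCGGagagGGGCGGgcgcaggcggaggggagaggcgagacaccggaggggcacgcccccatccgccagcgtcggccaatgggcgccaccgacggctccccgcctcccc
The TATA box of Fos begins 33 bases before the start site, and its CRE cores begin at 129 and 66 bases before it. Dusp1 and Btg2 each hold a full CRE, which begins 143 and 166 bases before the start site, and 3 GC boxes each. Among the 8 genes with a window, the CRE core was found in 6, the GC box in 6, the full CRE in 2 and the TATA box in 1. Of all 32851 promoter windows of this length, 17.8% hold the CRE core, 32.7% the GC box, 1.55% the full CRE and 12.4% the TATA box. The other genes lie on chromosome 7 (Fosb), 4 (Jun), 8 (Junb, Jund and Ier2), 18 (Egr1) and 1 (Atf3). In the GENCODE annotation Jun, Junb, Jund and Atf3 each overlap 1 gene on the opposite strand and Dusp1 overlaps 4 genes on either strand. The RefSeq windows of Jund, Atf3 and Dusp1 end 1210, 34706 and 53656 bases from the GENCODE start of the gene, and that of Btg2 35 bases. The motif counts of the first of these genes thus depend on the start site used.

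In control mice, the 10 genes were far higher in somatic than in germ cells. Fos, the AP-1 subunit that is the usual marker of the early response, had 2948, 3977, 5557 and 3626 CPM in interstitial cells and 1600.4, 2325, 2117 and 1399.8 CPM in Leydig cells of the 4 mice. It had 119, 257, 276 and 172 CPM in Sertoli cells. Germ cells lay below all of these mice: SG had 47.1, 38.7, 60.6 and 29.6 CPM, pL-L-Z 22.9, 17.1, 26.3 and 14.4, P-D 6.26, 5.94, 4.19 and 3.09, and RS 9.36, 14.2, 6.02 and 3.54. With each cell type weighted alike, Fos was higher in somatic than in germ cell types by 6.09 on the log2 scale (SE 0.14, n = 4 mice, edgeR adjusted p = 1.31e-29). The fit held 20 somatic and 16 germ sums of these mice. All 10 genes were called higher in somatic cells, where 11.8% of the 21488 genes tested were called higher and 28.7% lower. Their median log2 difference was 5.10, against -0.91 over all genes tested. DESeq2, whose scaling put the median of all genes at -0.04, also called all 10 higher, with 5122 of all genes higher and 4449 lower in place of the 2546 higher and 6159 lower of edgeR.

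The size of the difference ranged from a log2 of 2.71 (SE 0.12) for Jund to 7.22 (SE 0.16) for Atf3. Atf3 had 838, 1181, 1102 and 855 CPM in immune cells and 1.99, 3.86, 3.30 and 2.59 CPM in SG, its highest level in germ cells. For 8 of the 10 genes, the lowest of 20 values in somatic cell types lay above the highest of 16 values in germ cell types, as it did for 1.18% of all genes tested. The exceptions were Jund and Dusp1. Dusp1 had 15.9 to 20.8 CPM in SG against 19.0 to 33.0 in Sertoli cells, and Jund had 247 to 324 CPM in SG against 177 to 258 in Sertoli cells.

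**Figure D1:**
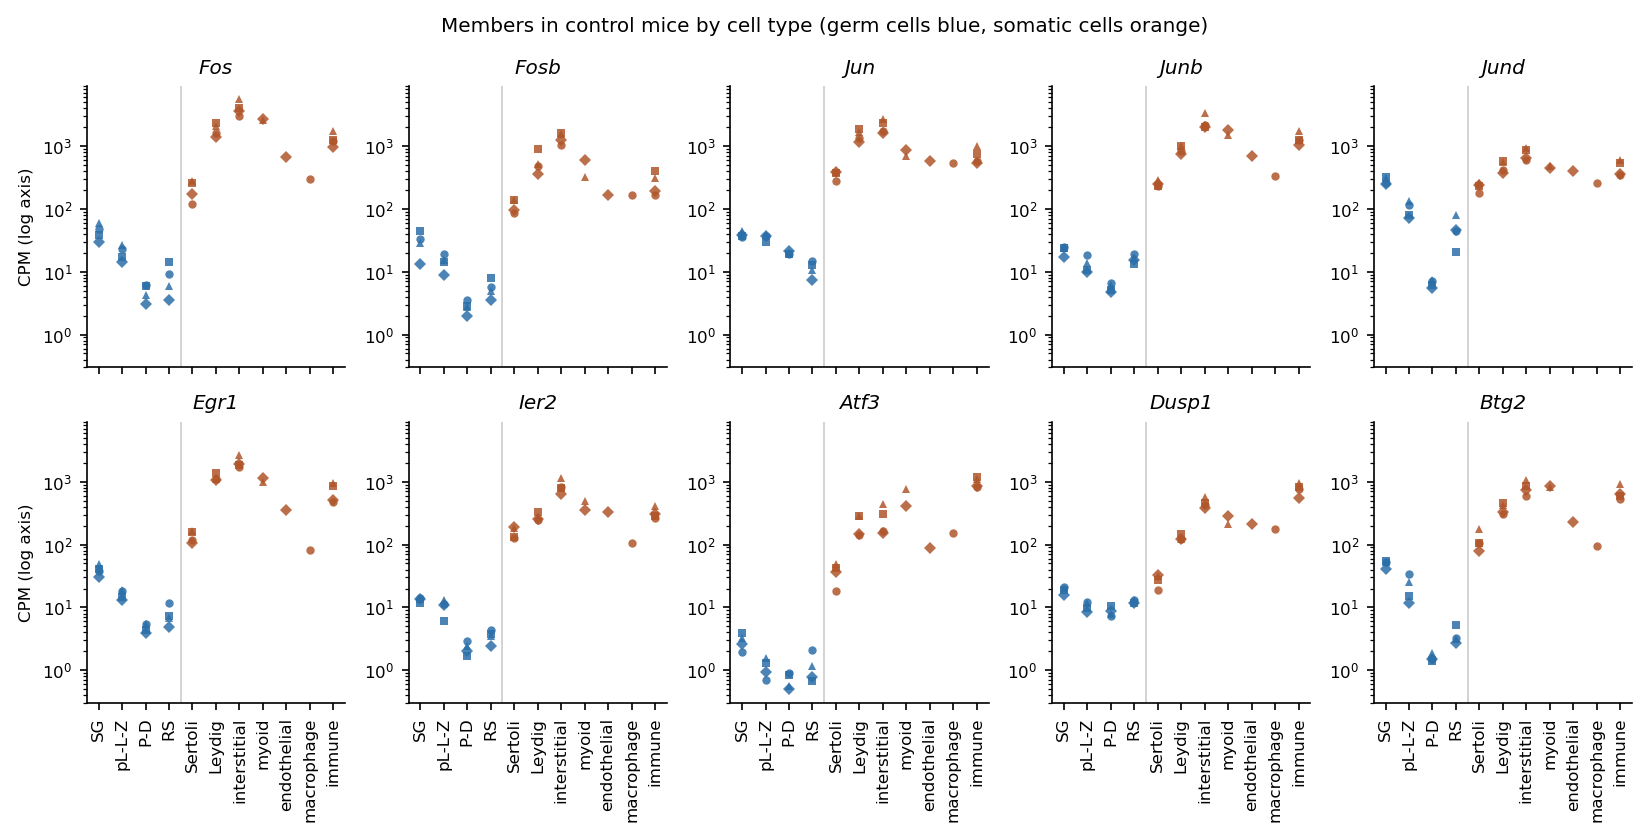
Level of each of the 10 genes in the 11 cell types of the control mice, in CPM on a log axis, with 1 point per mouse that had at least 20 cells of the type and marker shapes for the replicates. Germ cell types (blue) lie below somatic cell types (orange) for all genes but Jund and Dusp1, whose SG values overlap those of Sertoli cells.

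The cell type with the highest mean level was the interstitial cell for 8 genes and the immune cell for Atf3 and Dusp1. Among somatic types Sertoli cells, which nurse the germ cells inside the tubule, had the lowest mean for 7 of the 10 genes, and Leydig cells, which make testosterone between the tubules, exceeded them for all 10 (log2 differences of 1.17 for Ier2 to 3.52 for Fos, all called, against 13.9% of all genes). Interstitial cells were called higher than Leydig cells for Dusp1 (1.53), Ier2 (1.31), Junb (1.10) and Fosb (1.05), against 4.79% of all genes. Jun had 1762, 2335, 2723 and 1598 CPM in interstitial and 1351, 1832, 1699.8 and 1149.6 in Leydig cells, which overlap. Atf3 was called 2.05 higher in immune than in interstitial cells (7.57% of all genes called higher), while Fosb, Fos, Jun, Egr1 and Ier2 were called lower there, with log2 differences of -2.31 for Fosb to -1.34 for Ier2 (8.52% called lower). Dusp1 had 758, 813, 958 and 543 CPM there, and 429, 452, 566 and 379.8 in interstitial cells. Myoid cells, the contractile cells around the tubule, were among the 3 highest types for 8 of the 10 genes by the mean of the 4 mice, of which 2 had at least 20 of these cells. Endothelial cells and macrophages had that many in 1 control mouse each, with 662 and 298 CPM of Fos.

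Within the germ line, 6 of the 10 genes were called lower in pL-L-Z than in SG and 6 lower in P-D than in pL-L-Z, while 4 were called higher in RS than in P-D. Jund, the AP-1 subunit known for steady rather than induced expression, had 261, 324, 312 and 247 CPM in SG, 114, 79.7, 135 and 70.8 in pL-L-Z, 7.15, 6.06, 7.28 and 5.44 in P-D and 44.5, 20.7, 81.2 and 45.6 in RS. It gave 49.5% to 55.1% of the UMIs of the 10 genes in SG but 4.66% to 5.7% in interstitial cells, where Fos gave 24.1% to 28.1%. Between SG and pL-L-Z, 6 genes were called higher in SG, against 21.8% of all genes: Jund (log2 1.54), Atf3 (1.34), Egr1 (1.28), Btg2 (1.26), Fos (1.11) and Fosb (1.01). Jun, with 35.1, 37.6, 45.1 and 37.9 CPM in SG and 37.1, 29.4, 38.5 and 37.6 in pL-L-Z, overlapped between them (log2 0.11, SE 0.17, edgeR adjusted p = 0.608). Both types pooled clusters. The 10 genes together had 361 to 646 CPM in the SG clusters. A pL-L-Z cluster led by genes such as Mei1 and Stra8 overlapped these, with 465 to 592 CPM, and the other pL-L-Z clusters had 70.9 to 176 CPM. The summed level was thus lower than in SG only in those other pL-L-Z clusters. From pL-L-Z to P-D, 6 genes were called lower in P-D, with Jund (3.56) and Btg2 (3.36) foremost and Fosb, Ier2, Fos and Egr1 at 2.01 to 1.41, where 24.8% of all genes were called in this direction. In RS, 4 genes were called above P-D: Jund (2.91), Junb (1.56), Btg2 (1.20) and Fosb (1.00), against 29% of all genes. RS also pooled clusters of different level. Jund had 121 to 261 CPM in a cluster led by Prm2 and Prm1, with 132 cells in 3 control mice. It had 63.1 to 85.4, 3.68 to 28.0 and 15.7 to 24.9 CPM in the other RS clusters. Their part in the rise was not tested. Compared with SG, Sertoli cells were called higher for 8 genes, from 1.04 for Btg2 to 3.54 for Atf3 (13.9% of all genes). Jund was not called and lay lower in Sertoli cells, by a log2 difference of -0.48 (SE 0.20, edgeR adjusted p = 0.041), and Dusp1 was 0.44 higher (SE 0.18, edgeR adjusted p = 0.032).

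Free RNA, which leaks from broken cells into every droplet, sets a floor under these germ cell levels. Its makeup was read from barcodes of 1 to 100 UMIs, in which the 10 genes together had 306, 437, 385 and 347 CPM in the control libraries. Its share of each sum was estimated from 9 marker genes of Leydig and interstitial cells, on the assumption that germ and Sertoli cells express none of them, so an estimate may exceed 100%. By this estimate free RNA gave 4.33% to 6.62% of the UMIs of the 10 genes in SG of the control mice, 11.3% to 29.0% in pL-L-Z, 46.8% to 74.8% in P-D, 23.3% to 44.0% in RS and 1.44% to 7.21% in Sertoli cells. In P-D it came to 70.6% to 105% of the Fos UMIs and 58.3% to 121% of the Jund UMIs, so those values lie at or near the background. The same holds there for Btg2 (89.0% to 187%), Junb (87.9% to 112.5%), Ier2 (84.2% to 215%) and Atf3 (67.3% to 153%), and the shares of Fosb and Egr1 were 49.0% to 146% and 43.6% to 100.4%. The falls of Jund, Btg2, Ier2 and Fos from pL-L-Z to P-D are thus measured down to about the background, and the rises of Jund, Junb and Btg2 from P-D to RS start from it. In RS the estimate was 44.9% to 96.1% for Btg2, 36.8% to 53.9% for Fosb, 26.7% to 64.1% for Junb and 8.50% to 33.7% for Jund. In P-D it came to 15.7% to 31.7% for Jun and 15.4% to 27.7% for Dusp1. In SG it came to 9.54% to 10.7% for Fos and 1.36% to 1.99% for Jund. For Atf3 it came to 19.7% to 33.1% in SG and 60.1% to 222% in pL-L-Z. The fall of Atf3 from SG to pL-L-Z is thus measured down to near the background. After each cell was thinned to 2000 UMIs, 5.17% to 10.4% of SG of the control mice held a Fos UMI, against 0.935% to 2.56% of P-D and 87.3% to 95.3% of interstitial cells, with 61 of 1507, 212 of 3503 and 6 of 324 cells left out as too shallow. Without thinning these shares were 29.9% to 52.6%, 11.3% to 16.7% and 92.9% to 98.1%, at medians of 14622 to 24005, 7737 to 41361 and 4506 to 6607 UMIs per cell.

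Before the genotypes are compared, the targeted genes and the libraries need a word. In SG and pL-L-Z together, with no cell left out, Nelfb had 68.0, 58.7, 60.9 and 62.5 CPM in control, 4.09 and 5.05 in NELF-B cKO and 63.8, 59.5 and 59.7 in TDP-43 cKO mice. Tardbp had 124 to 163 CPM in control, 97.4 and 103.5 in NELF-B cKO, both below all control mice, and 34.6, 53.1 and 56.0 in TDP-43 cKO mice, but its 3′ UMIs lie outside the deleted exon. Germ cells of a cKO mouse in which the targeted transcript was still seen were dropped, following the study's own procedure. No control cells were dropped. In SG and pL-L-Z this took the TDP-43 cKO mice from 1268, 1999 and 2206 to 576, 1018 and 1035 cells. Their medians fell from 27339.5, 15634 and 17098 to 17709, 11677.5 and 12659 UMIs. The NELF-B cKO mice went from 1677 and 885 to 1645 and 825 cells. The 2 NELF-B cKO mice stood apart from each other: in SG and pL-L-Z, 9 of the 10 genes lay within the control range in replicate 1 and Jun below it, and all 10 lay above all control mice in replicate 2. The free RNA of all 5 cKO libraries held more UMIs of the 10 genes than that of any control library, with 734 and 3627 CPM in NELF-B cKO and 3806, 1327 and 1266 CPM in TDP-43 cKO mice. Mitochondrial transcripts had medians of 1.12% to 1.86% of UMIs per barcode in control, 2.86% and 5.02% in NELF-B cKO and 4.43% to 5.09% in TDP-43 cKO libraries. Their part in the differences between genotypes was not tested.

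**Figure D2:**
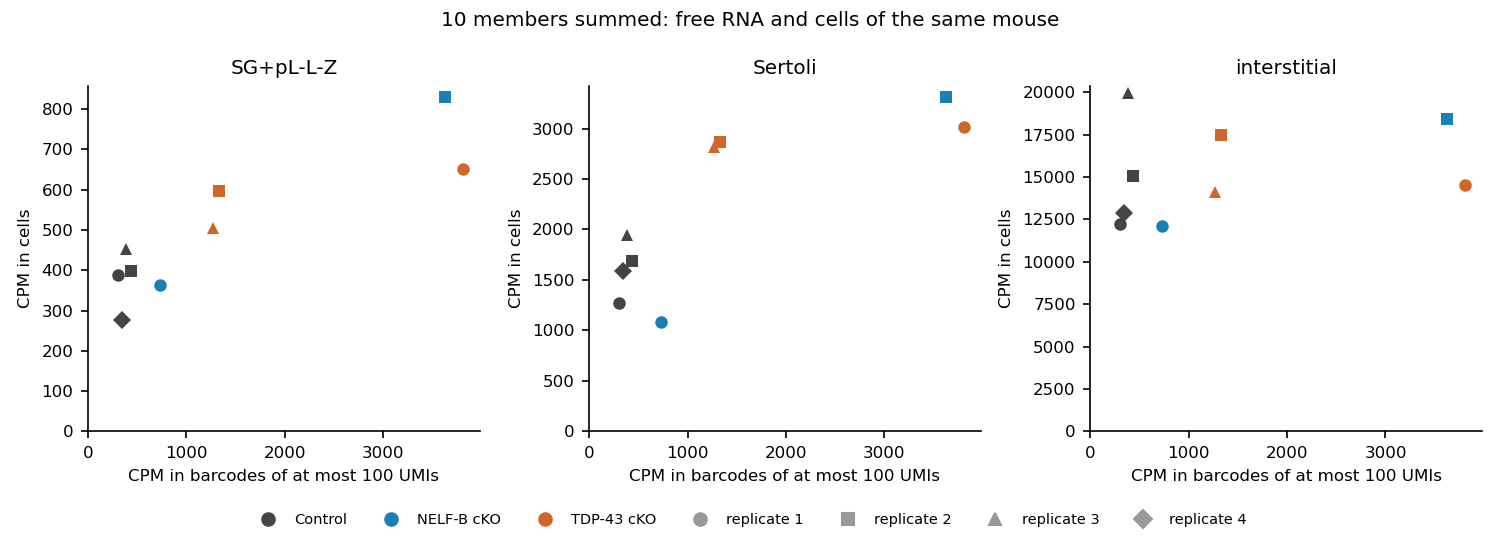
UMIs of the 10 genes together in free RNA (barcodes of at most 100 UMIs, x axis) and in the cells of the same mouse (y axis), both in CPM, for SG with pL-L-Z, Sertoli and interstitial cells, with 1 point per mouse. NELF-B cKO replicate 2 and TDP-43 cKO replicate 1 hold 3627 and 3806 CPM in free RNA, and in interstitial cells the genotypes overlap.

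In SG and pL-L-Z, no immediate early gene changed past the threshold in either cKO, and all 10 had positive fold changes in both. In NELF-B cKO mice, Fos had 26.3 and 88.4 CPM, against 33.0, 27.9, 43.3 and 19.6 CPM in control mice. The first mouse lay within the control range and the second at more than the highest control mouse, and the log2 difference was 0.82 (SE 0.42, n = 2 and 4, edgeR adjusted p = 0.287). Jund had 193 and 355 CPM against 175, 202, 223 and 131, a log2 difference of 0.52 (SE 0.23, edgeR adjusted p = 0.221). Atf3 had 1.38 and 9.90 CPM against 1.24, 2.59, 2.43 and 1.49, which is 1.45 on the log2 scale (SE 0.62, edgeR adjusted p = 0.204). Free RNA was estimated to give 56.9% to 95.3% of these Atf3 UMIs in NELF-B cKO and 34.2% to 96.0% in control mice. The median log2 difference of the 10 genes was 0.68, against -0.002 over all genes, and 4 passed an unadjusted p of 0.05 as higher, as did 11.2% of the 19869 genes tested. The call itself was met by 0% of all genes as higher and by 0.00503%, Nelfb alone, as lower. That call was fixed in advance, since germ cells of these mice with a Nelfb UMI had been dropped. DESeq2 called 84 genes higher and 235 lower, and none of the 10. For none of the 10 did both mice lie above all 4 control mice, which they did for 18.6% of all genes. Junb had 19.6 and 58.8 CPM against 20.9, 17.3, 18.5 and 12.4 (log2 1.11, SE 0.42, edgeR adjusted p = 0.154), and Btg2 had 39.5 and 74.7 CPM against 41.6, 35.4, 39.4 and 21.6. Of these as well, the first mouse lay within and the second above the control range. Without NELF-B cKO replicate 2, the log2 differences of 7 genes turned negative, and Fos then had -0.25 and Jun -0.90. Free RNA was estimated to give 17.1% and 19.9% of the UMIs of the 10 genes in these mice, and 49.6% and 38.6% of those of Fos, against 7.57% to 16.3% and 13.2% to 26.6% in control mice.

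TDP-43 cKO mice were more alike. Fos had 68.6, 49.5 and 40.7 CPM in their SG and pL-L-Z, of which the last lies within the control range, a log2 difference of 0.74 (SE 0.38, n = 3 and 4, edgeR adjusted p = 0.194). Jund had 299, 312 and 260.3 CPM, all above the highest control value of 223, and the log2 difference was 0.63 (SE 0.21, edgeR adjusted p = 0.057). Egr1 had 65.9, 41.1 and 40.1 CPM against 26.4, 27.9, 33.6 and 19.3, and the log2 difference was 0.84 (SE 0.33, edgeR adjusted p = 0.098). Ier2 had 30.0, 21.0 and 15.3 CPM against 12.5, 8.90, 13.3 and 11.7, and Dusp1 20.6, 29.9 and 20.1 CPM against 15.9, 14.6, 16.3 and 11.1, both without overlap. Jun, in contrast, overlapped the control mice, with 50.7, 47.2 and 34.8 CPM against 36.3, 33.5, 41.8 and 37.7. Fosb, with 29.0, 28.2 and 22.9 CPM against 24.9, 29.1, 21.9 and 10.3, overlapped too. None of the 10 was called by edgeR or DESeq2, where edgeR called 0.181% of all genes higher and 2.61% lower. Unadjusted, 4 passed a p of 0.05 as higher (Jund, Dusp1, Egr1 and Ier2), as did 13.1% of all genes. The median of the 10 was 0.65, and that of all genes -0.01. For 5 of them, Atf3, Jund, Ier2, Dusp1 and Egr1, every TDP-43 cKO mouse lay above every control mouse, which was true of 17.9% of all genes. After subtraction of the estimated free RNA this held for Jund, Ier2, Dusp1 and Egr1, against 14.7% of all genes. The free RNA share of the 10 genes was 7.95% to 16.5% in the TDP-43 cKO mice, close to the range of the control mice.

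The makeup of the summed SG and pL-L-Z differed between the genotypes. SG gave 34.3% to 50.0% of its UMIs in control, 56.7% and 66.1% in NELF-B cKO and 65.2% to 69.2% in TDP-43 cKO mice, and most of the 10 genes were higher in SG than in pL-L-Z. The 10 SG markers summed to 869 to 1208 CPM in control, 1433 and 1646 in NELF-B cKO and 1435 to 1685 in TDP-43 cKO mice, and the 9 P-D markers to 1564 to 2655, to 1198 and 518, and to 191 to 525 CPM, with all of them detected in each mouse. The 8 macrophage markers summed to 5.601 to 7.81, to 20.1 and 16.6, and to 13.28, 13.15 and 13 CPM, with 6 to 8 detected. The 6 interstitial markers, all detected, summed to 8.12 to 11.7, to 22.9 and 34.7, and to 8.86 to 44.2 CPM. The 6 Leydig markers, all detected, summed to 12.9 to 38.0 in control, 58.1 to 80.6 in NELF-B cKO and 18.4 to 47.0 CPM in TDP-43 cKO mice, so that the NELF-B cKO mice did not overlap the control mice. Their part in the differences was not tested, other than by taking SG and pL-L-Z apart. That step leaves the makeup of pL-L-Z itself, which pooled clusters of different level. In control mice the 10 genes together had 465 to 592 CPM in its cluster led by genes such as Mei1 and Stra8. They had 97.1 to 100.8, 121 to 176 and 70.9 to 95.1 CPM in its other clusters. The part of these clusters in the differences between genotypes was not tested.

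No gene of the 10 was called between the cKO groups, where 0.00503% of all genes were called in each direction, and the log2 differences of NELF-B over TDP-43 cKO ran from -0.25 for Dusp1 to 0.52 for Junb.

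Taken apart, SG and pL-L-Z also gave no call in either cKO. In pL-L-Z of TDP-43 cKO mice, Fos had 75.5, 48.5 and 35.9 CPM, all above the control values of 22.9, 17.1, 26.3 and 14.4, and a log2 difference of 1.39 (SE 0.37, edgeR adjusted p = 0.020). DESeq2 called it, with 11.9% of all genes called in either direction, and so did edgeR with either NELF-B cKO mouse left out, with 10.4% and 10.2%. In SG, Fos had 65.6, 50.0 and 43.2 CPM in the same mice, which overlaps the control values. Atf3, Ier2, Fos, Dusp1 and Egr1 lay above all control mice in pL-L-Z of the TDP-43 cKO, against 18.9% of all genes, and Jund, Ier2 and Dusp1 did so in SG, against 6.22%. In NELF-B cKO mice this held for Junb alone in pL-L-Z (22.8%) and for no gene in SG (10.0%). Free RNA was estimated to give 57.6% to 97.1% of the Atf3 UMIs in pL-L-Z of TDP-43 cKO and 60.1% to 222% of control mice. The pooling of pL-L-Z clusters of different level, given above, applies to these values too, and its part was not tested. At an unadjusted p of 0.05, 5 of the 10 were higher in pL-L-Z of either cKO (14.3% of all genes for NELF-B and 17.7% for TDP-43), and 0 and 1 were higher in SG (6.86% and 5.83%). The call was met as higher by 0% and 1.87% of all genes in pL-L-Z and by 0% in SG. DESeq2 called none of the 10 in SG of either cKO or in pL-L-Z of NELF-B cKO mice.

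P-D and RS cells were few in the cKO mice, with 571 and 72 P-D cells in NELF-B cKO and 1, 53 and 60 in TDP-43 cKO mice. Before cells with the targeted transcript were dropped there were 6, 213 and 188 such cells in TDP-43 cKO mice, and the medians of the mice with 213 and 188 fell from 42460 and 28696 UMIs to 2759 and 2660.5, against 7737 to 41361 in control mice. Fos had 9.52 and 59.3 CPM in P-D of NELF-B cKO mice, and 14.2 and 19.8 CPM in the 2 TDP-43 cKO mice with at least 20 cells, against 3.09 to 6.26 CPM in control mice. None of them overlaps the control mice, but the log2 differences of 2.64 and 1.39 were not called (edgeR adjusted p = 0.146 and 0.344). By the estimate above, free RNA gave 81.2% and 52.6% of the Fos UMIs of NELF-B cKO mice and 55.7% and 28.5% of those of TDP-43 cKO mice. Of the 10 genes, 6 lay above all control mice in P-D of the NELF-B cKO (10.8% of all genes) and 5 in P-D of the TDP-43 cKO (30.5%). At an unadjusted p of 0.05, 8 and 2 were higher (5.36% and 9.54%), where 0.00546% and 0.606% of all genes met the call, and DESeq2 called Fos and Junb for NELF-B and Junb and Jund for TDP-43, with 0.371% and 5.66% of all genes called in either direction. The P-D cells of the NELF-B cKO mice had medians of 49396 and 5873.5 UMIs. P-D pooled clusters of different depth and level. In control mice the 10 genes together had 92.9 to 126.4 CPM in a cluster with a median of 3102 UMIs. They had 46.2 to 69.1 CPM in a cluster with a median of 60990. The part of these clusters in the differences was not tested. In RS, which only TDP-43 cKO mice could be tested for, Jun and Junb lay above the control mice (20.5% of all genes), and none of the 10 passed an unadjusted p of 0.05 as higher (7.83%) or the call (0%), or was called by DESeq2. The 2 TDP-43 cKO mice tested had 29 and 59 RS cells with 195292 and 589496 UMIs. Their P-D sums held 494437 and 453854 UMIs. In both types the level of a gene in these mice rests on few UMIs.

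**Figure D3:**
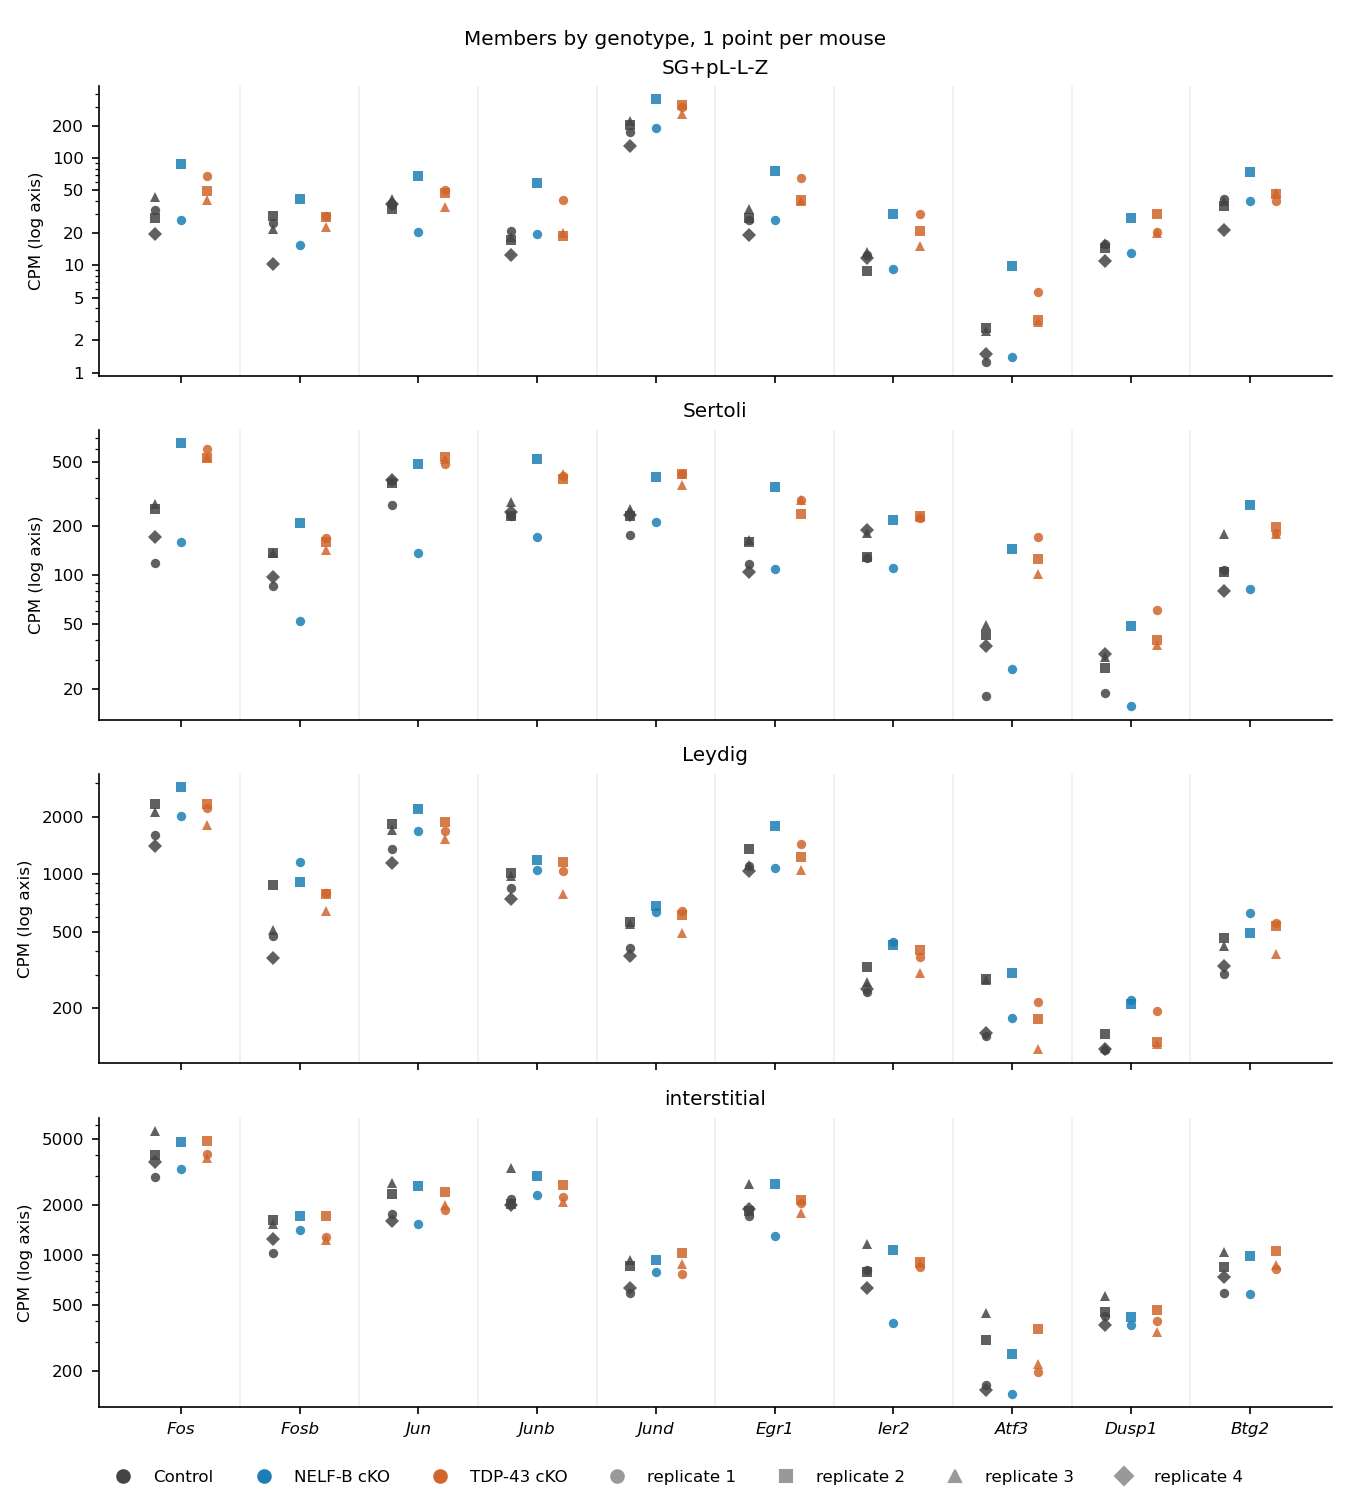
Level of each gene in SG with pL-L-Z, Sertoli, Leydig and interstitial cells by genotype, in CPM on log axes, with 1 point per mouse and marker shapes for the replicates. In Sertoli cells, which pool clusters of different depth, all 3 TDP-43 cKO mice lie above the 4 control mice for all 10 genes (barely for Btg2), and NELF-B cKO replicate 2 lies well above replicate 1.

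In Sertoli cells, which Stra8-iCre is not meant to target, all 10 genes were higher in every TDP-43 cKO mouse than in every control mouse, Btg2 only barely. No more than 7 of them were so within either of the main Sertoli clusters. Fos had 599, 530.2 and 537 CPM in the Sertoli cells of the TDP-43 cKO mice, against 119, 257, 276 and 172 CPM in control mice. The groups do not overlap, and the log2 difference was 1.44 (SE 0.43, n = 3 and 4, edgeR adjusted p = 0.060). Atf3, induced by many kinds of stress, had 172, 126 and 102 CPM against 18.04, 42.8, 49.6 and 36.6, a log2 difference of 1.84 (SE 0.50, edgeR adjusted p = 0.050). Jund had 423, 419 and 362 CPM against 177, 231, 258 and 236, and the log2 difference was 0.84 (SE 0.22, edgeR adjusted p = 0.047). Egr1 had 289.7, 238 and 290.0 CPM against 117, 159.6, 164 and 105 (log2 1.01, SE 0.34, edgeR adjusted p = 0.085). Junb, with 408, 393 and 422 CPM against 232, 232, 283 and 247, and Ier2, with 226, 232 and 229 CPM against 127, 131, 183 and 190.4, did not overlap either. Jun had 488, 534 and 519.7 CPM against 273, 371, 388 and 388 (log2 0.55, SE 0.34, edgeR adjusted p = 0.325). For all 10 genes every TDP-43 cKO mouse lay above every control mouse, which was so for 13.7% of the 14840 genes tested, and 8 kept this after the estimated free RNA was subtracted (8.31% of all genes), all but Fosb and Btg2. Before subtraction, the highest control and lowest TDP-43 cKO values of Btg2 both rounded to 179.6 CPM. Those of Fosb were 136.9 and 143.5 CPM.

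The Sertoli cells came from clusters of different depth, and the groups differed in their shares. A cluster of 1686 cells had a median of 2087 UMIs, a cluster of 967 cells a median of 37670, and a cluster of 297 cells a median of 3591. The cluster of 967 cells, where the summed level of the 10 genes was highest, gave 42.9%, 68.8%, 84.2% and 72.9% of the Sertoli UMIs of the control mice, 63.9% and 78.7% in NELF-B cKO mice and 94.65%, 84.98% and 93.0% in TDP-43 cKO mice. Within it, the 10 genes together had 2193, 2203, 2149 and 1931 CPM in control and 3136, 3234 and 2976 CPM in TDP-43 cKO mice, and Fos had 248, 343, 309 and 214 against 628, 606 and 569.8 CPM. There 7 of the 10 were higher in every TDP-43 cKO than in every control mouse, all but Fosb, Dusp1 and Btg2, against 8.17% of all genes, and the log2 differences were 1.17 for Fos and 1.62 for Atf3 (edgeR adjusted p = 0.102 and 0.078). Within the cluster of 1686 cells, the 10 genes together had 504.7, 508.5, 641 and 674 CPM in control and 958.5, 724 and 759 CPM in TDP-43 cKO mice. There Atf3 and Jund alone of the 10 did not overlap, against 13% of all genes, and the log2 difference of Fos was 0.64 (edgeR adjusted p = 0.31). None of the 10 was called in either cluster, where edgeR called 44 genes higher and 937 lower of 9540 in the cluster of 1686 cells and 0 of 13650 in that of 967. The part of the cluster shares in the pooled values, and in the test of germ against Sertoli cells, was not tested further.

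None of the 10 was called in these Sertoli cells, and edgeR called 0% of all genes in either direction. At an unadjusted p of 0.05, 6 of the 10 were higher, as were 1579 or 10.6% of all genes. At an adjusted p of 0.05 with no limit on the fold, Jund and Atf3 passed, as did 1.9% of all genes as higher. DESeq2 called Fos (adjusted p = 0.00687) and Atf3 (adjusted p = 0.00334), with 126 of all genes called higher and 1265 lower. Free RNA was estimated to give 5.50% to 17.8% of the UMIs of the 10 genes in Sertoli cells of the TDP-43 cKO mice and 14.2% and 26.4% of them in NELF-B cKO mice, against 1.44% to 7.21% in control mice. The Sertoli cells of the TDP-43 cKO mice were also deeper, with medians of 4662 to 21005 UMIs against 2081 to 2627 in control mice. At 2000 UMIs per cell, 42.2% to 46.6% of them held a Fos UMI and 13.9% to 21.4% an Atf3 UMI, against 8.39% to 29.2% and 3.12% to 6.52% in control mice, with 157 of 1180 and 468 of 1157 cells left out as too shallow. Without thinning, 57.7% to 68.1% and 11.6% to 41.2% held a Fos UMI. Markers of some other somatic cells moved with these genes: the 8 endothelial markers summed to 108 to 124 CPM in Sertoli cells of the TDP-43 cKO mice and 25.6 to 54.1 in control mice, with 7 to 8 and 5 to 8 of them detected, and the 6 Leydig markers to 45.1 to 149.6 against 20.0 to 42.2, with all 6 and 4 to 6 detected. The 6 myoid markers summed to 43.9 to 62.0 against 10.4 to 25.8 CPM, with 4 to 6 and 3 to 4 detected. Those of 3 other types overlapped the control mice, with 16.2 to 86.5 against 11.4 to 21.5 CPM for interstitial cells, 11.6 to 36.8 against 6.89 to 12.2 for immune cells and 78.2 to 81.0 against 73.1 to 112 for macrophages. The 9 P-D markers moved the other way, with all 9 detected and sums of 83.8 to 519 CPM in the TDP-43 cKO against 1530 to 4133 in control mice. The 9 Sertoli markers summed to 7854 to 9859 and 5564 to 8059 CPM. Their part in the result was not tested.

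A further cluster of 124 cells, 105 of them from the TDP-43 cKO mice, scored highest for Sertoli markers but was led by genes such as Wfdc18, Myoz2 and Edn1 and was left unnamed and outside these sums. In it the 10 genes together had 6986 to 8857 CPM in the TDP-43 cKO mice, with 1974 to 2624 CPM of Fos and 938 to 1086 CPM of Atf3. The sums of the 10 genes in it were above their 2822 to 3019 CPM in the Sertoli cells of the same mice.

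The NELF-B cKO mice stood apart from each other in Sertoli cells too. In replicate 1, Fosb, Jun, Junb, Ier2 and Dusp1 lay below all control mice and the other 5 genes within their range, and in replicate 2 all 10 lay above it. Fos had 161 and 652 CPM and Atf3 26.4 and 145 CPM, with 1 mouse within the control range for each, and log2 differences of 1.01 (SE 0.47) and 1.24 (SE 0.55) were not called (edgeR adjusted p = 0.521 and 0.516). None of the 10 lay above all control mice in both (9.03% of all genes), 1 passed an unadjusted p of 0.05 as higher (6.3%), 0% of all genes met the call as higher, and DESeq2 called none of the 10. Within the cluster of 1686 cells alone, Btg2, Jund and Egr1 lay above all control mice in both (10.3% of all genes), and within that of 967 cells none did (8.53%). Markers of some other cells were higher here too: the 6 Leydig markers, all detected, summed to 132.9 to 468 CPM against 20.0 to 42.2 in control mice, with 4 to 6 detected, and the 6 interstitial markers to 64.4 to 69.2 CPM against 11.4 to 21.5, with 5 to 6 and 3 to 5 detected. The 8 endothelial markers summed to 76.85 to 101 CPM against 25.6 to 54.1, and the 7 immune markers to 19.3 to 26.0 against 6.89 to 12.2. The 6 myoid markers overlapped, at 19.6 to 51.6 against 10.45 to 25.8 CPM. The 9 P-D markers, all detected, were lower, at 305.9 to 1393 CPM against 1530 to 4133, and the 8 macrophage markers overlapped, at 80.5 to 105 against 73.1 to 112 CPM, with 7 to 8 and 4 to 5 detected. Their part in the result was not tested. Without replicate 2 the differences of Fos and Atf3 turned negative, to -0.38 and -0.53. These Sertoli cells had 6.40 and 10.5 CPM of Nelfb against 20.9 to 28.7 in control mice, and those of the TDP-43 cKO mice had 76.4 to 83.2 CPM of Tardbp against 105 to 111.5. Whether the null allele alone accounts for these lower levels was not tested.

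No immediate early gene was called by edgeR or DESeq2 in Leydig, interstitial or immune cells of either cKO or in myoid cells of TDP-43 cKO mice, while endothelial cells, macrophages and myoid cells of the NELF-B cKO had too few mice to be tested against control. In all of these edgeR called 0 genes, so that the calls of edgeR say nothing about the 10 in particular, while in TDP-43 cKO mice DESeq2 called 16 higher and 552 lower in Leydig, 1 and 223 in interstitial and 4 and 351 in immune cells and 0.613% of all genes in myoid cells, and in NELF-B cKO mice at most 6 higher and 7 lower in a cell type. In Leydig cells, 6 genes were above every control mouse in both NELF-B cKO mice, Btg2, Fosb, Jund, Ier2, Junb and Dusp1, against 6.65% of the 13589 genes tested. Dusp1 had 222 and 210.5 CPM there against 121, 146, 124 and 122 (log2 0.77, SE 0.17, edgeR adjusted p = 0.403), and Ier2 445 and 429.8 against 242, 330.3, 274 and 251 (log2 0.69, SE 0.15, edgeR adjusted p = 0.412). In TDP-43 cKO mice none of the 10 separated in Leydig cells, where 5.78% of all genes did as higher. At an unadjusted p of 0.05, 5 of the 10 were higher in Leydig cells of NELF-B cKO (3.71% of all genes) and 1 of TDP-43 cKO mice (5.12%). Interstitial cells, with the highest levels, showed no separation in either cKO: Fos had 3294 and 4775 CPM in NELF-B cKO and 4034, 4821 and 3847 in TDP-43 cKO mice, within the 2948 to 5557 CPM of the control mice. None of the 10 separated there, against 5.11% and 5.92% of all genes, or passed an unadjusted p of 0.05 as higher, against 2.39% and 6.04%. In immune cells, Jund and Fosb were above all control mice in NELF-B cKO mice (6.25% of all genes) and Ier2 below them (7.7%), and Jund and Dusp1 were above them in TDP-43 cKO mice (4.92%). Jund had 642 and 621 CPM in NELF-B cKO and 700.0, 626 and 656 CPM in TDP-43 cKO immune cells, against 349, 533, 592 and 359 in control mice. Unadjusted, 2 and 3 of the 10 were higher (3.79% and 4.52% of all genes). In myoid cells, with 2 control and 2 TDP-43 cKO mice of at least 20 cells, Jun and Jund were above and Fos, Junb, Egr1, Atf3 and Dusp1 below the control mice (22.7% and 19.3% of all genes), and 3 were lower at an unadjusted p of 0.05 (7.82%).

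**Figure D4:**
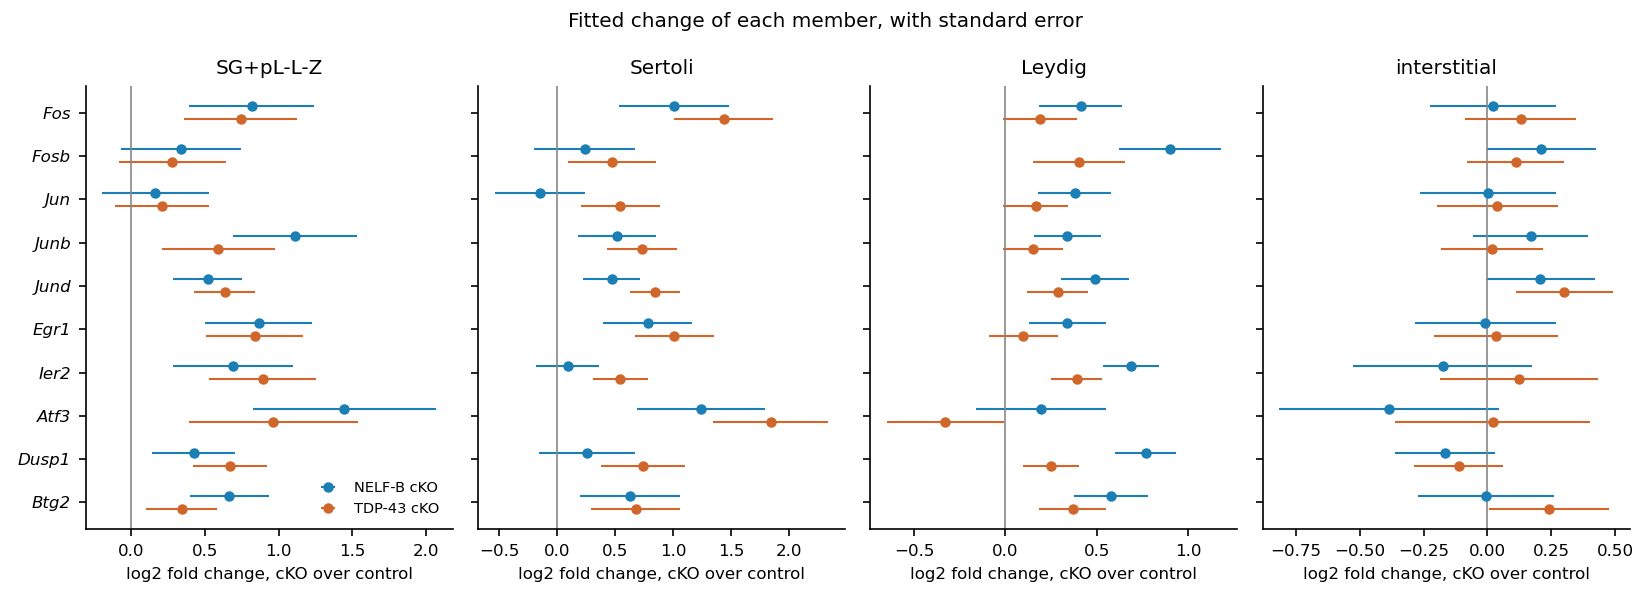
Fitted log2 fold change of each gene in NELF-B cKO (blue) and TDP-43 cKO (orange) over control mice, with bars of 1 standard error, in SG with pL-L-Z, Sertoli, Leydig and interstitial cells. The x axes differ between panels, and none of the changes met the call.

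The difference between the cKO effects in germ and in Sertoli cells was tested directly, with both sums of a mouse in 1 fit. For TDP-43 cKO the median of the 10 was -0.48, against -0.23 over all genes, where a negative value is a smaller effect in germ cells. No gene of the 10 was called for either cKO, against 0.0443% of 20302 genes called higher and 0.424% lower for TDP-43 and 0.00493% lower for NELF-B. For TDP-43 cKO, 9 of the 10 had a smaller effect in SG and pL-L-Z than in Sertoli cells and 6 passed an unadjusted p of 0.05 (18.8% of all genes). Atf3 had a difference of -1.16 (SE 0.24, edgeR adjusted p = 0.021) and Fos of -1.0001 (SE 0.32, edgeR adjusted p = 0.077), while Ier2 had 0.03 (SE 0.26). The germ values of Atf3 lie near the background. Free RNA was estimated to give 34.2% to 96.0% of its UMIs in SG and pL-L-Z of control and 56.4% to 67.5% of TDP-43 cKO mice. With interstitial in place of Sertoli cells the differences of Atf3 and Fos turned to 0.57 and 0.24. For NELF-B cKO the differences ranged from -0.19 to 0.54, with edgeR adjusted p of 0.649 or more.

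Other immediate early genes, a list of 43 such as Egr2 to Egr4, the Nr4a receptors, Klf factors and Ier3, were tested in the same fits. In control mice, 34 of the 43 were called higher and 2 lower in somatic than in germ cells, against 11.8% and 28.7% of all genes, foremost Ier3 (log2 6.56), Myc (6.20), Irf1 (5.99) and Nr4a2 (5.76), and their median was 4.09 against -0.91 over all genes. Within the germ line 26 of the 43 were called higher in SG than in pL-L-Z, against 21.8% of all genes, among them Egr4 (6.18), Irf1 (4.17), Egr2 (3.75) and Socs3 (3.50). In Sertoli cells, 16 of the 43 were called higher and 7 lower than in SG, against 13.9% and 22.7% of all genes, and Egr4 (-5.83) and Dusp2 (-3.19) were among the lower. Egr3 (5.92), Nr4a1 (4.29) and Klf4 (4.17) were called higher in RS than in P-D, with 13 of the 43 called higher and 2 lower, a share near the 29% of all genes called higher.

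Upstream regulators, a list of 26 that holds serum response factor and its partners, MAP kinases, CREB family members and partners of AP-1, had 8 of its genes called higher and 2 lower in somatic cells, against 11.8% and 28.7% of all genes, with a median of 0.06 against -0.91. Of these, Jdp2, a repressor of AP-1 (5.78), Egfr, the receptor of epidermal growth factor (3.96), Elk3 (3.68) and Rps6ka3 (1.89) were foremost. Between genotypes, in SG and pL-L-Z, no gene of either list was called in NELF-B cKO mice. In TDP-43 cKO mice Crem, a CREB family gene of the germ line, was the 1 gene of the 26 called lower (-1.08, SE 0.15, edgeR adjusted p = 0.00475), against 2.61% of all genes and beside the lower sums of the P-D markers given above, whose part was not tested, and none of the 42 tested other immediate early genes was called. In Sertoli cells of the TDP-43 cKO mice none of the 42 was called and 38 had positive fold changes, with a median of 0.61 against 0.01 over all genes. Hspa1a, a heat shock gene that dissociation also induces, had 11.4, 12.3, 15.6 and 25.5 CPM in Sertoli cells of control and 42.2, 24.0 and 17.9 CPM of TDP-43 cKO mice, which overlap.

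The 10 genes had like profiles over the 11 cell types of the control mice. The Pearson correlation of a gene with the mean standardized profile of the 10 was highest for Fos (0.996) and lowest for Jund (0.897), as a description over 11 means that share 4 libraries. Of the 16550 genes with at least 10 CPM in a cell type, those outside the 10 that were most like this profile were Zfp36 (0.988), which encodes a protein that destabilizes mRNAs, Rps4x (0.981), a ribosomal protein gene, Id2 (0.978), Irf1 (0.968) and S100a11 (0.966). Zfp36 had a mean of 348 CPM in interstitial and 0.995 CPM in P-D cells, where Fos had 4027 and 4.87 CPM.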

How the data were processed

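The deposited matrices hold raw UMI counts, not normalized and with all barcodes, that the authors obtained from 10x 3′ libraries with Cell Ranger 7.0.0 on the mm10 build, after demultiplexing with Cell Ranger 6.1.1. The submitters' processing notes also name Seurat 4.2.0 and DESeq2 1.36.

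The 10 genes, the gene lists, the marker lists and the tests were chosen with earlier results of these data known, and the contrasts between single cell types of control mice, the subtraction of free RNA and the tests of single Sertoli clusters after the data were examined. Barcodes passing limits of 1000 genes and 10% mitochondrial reads entered the clustering (scanpy 1.11.5, leidenalg 0.10.2, 3000 variable genes, 40 components, 20 neighbours, resolution 0.8) without the 10 genes, Nelfb and Tardbp. Of 36 clusters, 26 with 29594 cells were named from 88 markers, of which at least 3 had to be 2-fold above the other clusters. A named cluster also had a median of 2000 UMIs or more and drew at most 80% of its cells from any 1 mouse. No doublet caller was run. Following the study, 234 germ cells of NELF-B cKO and 3174 of TDP-43 cKO mice were dropped because the targeted transcript was seen in them, which also depends on a cell's depth.

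Sums over the cells of a type in a mouse, for mice with at least 20 cells of the type, were tested with edgeR 4.0.16 in R 4.3.3 (filterByExpr, TMM, glmQLFit, glmQLFTest), with all genotypes in 1 fit. Contrasts within control mice and between cell classes held the mouse as a block. All tests were two-sided, and standard errors are the log2 fold change divided by the square root of F. DESeq2 1.42.0, other filters, scalings, cells and thresholds, and fits without each mouse were alternatives. The steps were tested on simulated data with known changes, in which all genes and mice were given 1 fixed spread. Whether that spread matches these mice was not tested, so no conclusion is drawn on the share of real changes found. The genes named beside the 10 are at most 4 of each list, those called with the largest fold changes, and the 5 genes most alike across cell types. Replicates differed by more than counting noise, and their numbers did not pair the mice.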

Additional observations from a re-analysis of the deposited data

Results flagged for a closer look

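In 5 of 90 groups of 4 control mice, 1 per gene and cell type, the highest or lowest mouse lay far from the others (Dixon's test at the 95% level, which chance alone passes in about 1 in 20 groups). Junb in SG was 17.0 CPM in control replicate 4, and 23.6 in the next mouse. Jun in pL-L-Z was 29.4 CPM in control replicate 2, with 37.1 in the next. Jun in Sertoli cells was 273 CPM in control replicate 1, with 371 in the next. Dusp1 in Leydig cells was 146 CPM in control replicate 2, where the next had 124. Junb in interstitial cells was 3332 CPM in control replicate 3, and 2167 in the next.

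The fitted effect of the TDP-43 cKO on Atf3 in SG with pL-L-Z minus that in Sertoli cells was -1.16 on the log2 scale (edgeR's quasi-likelihood test of the difference, adjusted p = 0.021), which passes 0.05 but not the call of 0.01. Without the mouse as a block the adjusted p was 0.507, and with interstitial in place of Sertoli cells the difference turned to 0.57. The larger effect was in Sertoli cells, whose clusters differed in their shares between the groups. In SG with pL-L-Z, free RNA was estimated to give 34.2% to 96.0% of the Atf3 UMIs of control and 56.4% to 67.5% of TDP-43 cKO mice.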

How the results depend on the processing

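All 10 genes stayed called higher in somatic than in germ cells under every alternative run, and none was called between genotypes in SG with pL-L-Z under any of 18 alternatives per contrast. Counts of called genes moved from 0 for TDP-43 cKO against control: to 1 in pL-L-Z (Fos) with DESeq2 and at an adjusted p under 0.05 without a fold limit, to 2 with DESeq2 and 1 at that threshold in P-D, and to 2 in Sertoli cells with either. With each of the 2 larger Sertoli clusters tested alone, a choice made after seeing the data, it stayed at 0. Leaving out mice gave 0 to 1 in pL-L-Z, 0 to 2 in P-D and 0 to 1 in myoid cells (Atf3, without control replicate 4). For NELF-B cKO in P-D it gave 0 to 7, and DESeq2 gave 2. For the difference between germ and Sertoli cells in TDP-43 cKO it gave 0 to 1 (Atf3, without NELF-B cKO replicate 2), and the threshold of 0.05 gave 1. The cause of these changes was not tested. Without control replicate 4, 1 control mouse with at least 20 myoid cells was left, with 25 cells. In P-D, leaving out either NELF-B cKO mouse, or either TDP-43 cKO mouse with at least 20 cells, left 1 in that group. A group of 1 mouse shows no spread between mice, so no conclusion is drawn from the counts of these fits. A count with no share of all genes beside it, here or above, says nothing about the 10 in particular.

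With 1 mouse left out at a time, log2 fold changes in NELF-B cKO SG with pL-L-Z ranged from -0.25 to 1.46 for Fos, -0.48 to 0.88 for Fosb, -0.90 to 0.80 for Jun, -0.032 to 1.45 for Egr1, -0.33 to 1.32 for Ier2, -0.51 to 2.28 for Atf3 and -0.16 to 0.87 for Dusp1. In its Sertoli cells they ranged from -0.38 to 1.71 for Fos, -0.095 to 0.88 for Jund, -0.34 to 1.41 for Egr1 and -0.53 to 1.99 for Atf3. The negative values are those without NELF-B cKO replicate 2. With the estimated free RNA subtracted, Fosb (-0.10) and Jun (-0.27) turned negative in NELF-B cKO and Jun (-0.018) in TDP-43 cKO. With interstitial in place of Sertoli cells, the difference between classes in TDP-43 cKO turned to 0.24 for Fos and 0.57 for Atf3.

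The replicate numbers did not pair the mice: deviations of same-numbered mice correlated at 0.37 and 0.36 for control and NELF-B cKO, where the second mirrors the first in a group of 2, and at -0.18 to -0.02 for control and TDP-43 cKO. With the replicate number as a block, Fosb in NELF-B cKO was -0.086 and no gene was called in SG with pL-L-Z. Without the mouse as a block, the difference for Atf3 was -1.15 (adjusted p = 0.507).

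The small number of mice limits every comparison of genotypes. The free RNA estimate rests on 9 markers, with 3 others dropped after their values were seen. Counting intervals were not used, since mice differed by more than counting noise.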

Other observations

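Hspa1a, a heat shock gene, was high in Leydig cells of control replicate 4, with 638 CPM against 27.4 to 37.1 CPM in the other control mice, and in TDP-43 cKO replicate 1, with 209.8 CPM. In interstitial cells of control replicate 4 it had 657 CPM, against 106 to 189.6. The 10 immediate early genes were not high in that mouse: together they had 5933 CPM in its Leydig cells, the lowest of the control mice.

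Control replicate 1 shares a code in its deposited name with NELF-B cKO replicate 2, and control replicate 2 with TDP-43 cKO replicate 1, and what the code stands for is not given in the sources used here. Within these pairs, 10 and 9 of the 10 genes were higher in the cKO mouse in SG with pL-L-Z, 10 and 10 in Sertoli cells, 10 and 6 in Leydig cells and 9 and 4 in interstitial cells, with no test at 1 mouse a side.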
